A study of Saccharomyces cerevisiae with 8 samples.

Results

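The independently transcribed small nucleolar RNAs (snoRNAs) of budding yeast are those made from a gene of their own, not cut from an intron or from a precursor that holds several snoRNAs. Members were taken by gene name: 51 were listed, 24 of box C/D and 27 of box H/ACA, and a member was measured where a probe set of the array is annotated with its symbol alone. That left 36 of the 5656 genes the array names, 20 box C/D and 16 box H/ACA. The other 15 (SNR17B, SNR40, SNR60 and SNR87 of box C/D, and SNR10, SNR30, SNR49, SNR80, SNR81, SNR82, SNR83, SNR84, SNR85, SNR86 and SNR161 of box H/ACA) were not analysed here. The rule uses gene names and no measured value, though earlier results of these data were known when the list was drawn up.

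Total RNA of Saccharomyces cerevisiae in exponential growth was hybridised to 8 Affymetrix arrays. The groups are the strain labelled rnt1d at 26 C (2 arrays), the strain labelled rnt1ts at 26 C (1 array), wild type at 26 C (2 arrays), and rnt1d, rnt1ts and wild type at 37 C (1 array each). The labels used here do not spell out what rnt1d and rnt1ts stand for, what other alleles the strains carry or how long cells were kept at 37 C. Cultures grew in YC medium, some lacking leucine, and the labels do not say which.

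Box C/D snoRNAs guide methylation of ribosomal RNA riboses by the Nop1 complex, and box H/ACA snoRNAs guide pseudouridylation of ribosomal RNA by the Cbf5 complex. A few act instead in cleavage or acetylation of the ribosomal precursor. RNT1 encodes the yeast RNase III, which cuts hairpins closed by a short loop. In many box C/D precursors such a hairpin lies upstream of the mature RNA, and the cut removes the cap and lets exonucleases trim the 5′ end. Box C/D members such as SNR4, SNR13, SNR17A and SNR45, and many box H/ACA snoRNAs, keep a cap at their mature 5′ end instead, and SNR52 is transcribed by RNA polymerase III. A probe set can read the mature RNA, an uncut precursor or both, and how well so short an RNA was labelled is not known. Less RNA per cell and fewer cells that make it cannot be told apart in such bulk samples.

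Several readouts bear on the labels. Signals here are quantile-normalised and linear. RNT1 was at 1.31 and 2.03 in rnt1d at 26 C, where it was not above background, and at 39.8 in rnt1ts, against 181 and 149 in wild type. At 37 C the array labelled rnt1d had an RNT1 signal of 71.4 and that labelled rnt1ts one of 1.26, which did not exceed background, against 269 in wild type. The 37 C mutant arrays thus went against their labels. Most of the listed genes of the mitochondrial genome and of mating type divided the arrays in the same manner. All 5 mitochondrial genes on the list (OLI1, COX1, ATP6, COX3 and COB) were not above background on both rnt1d arrays at 26 C and on the array labelled rnt1ts at 37 C. In wild type all 5 were above background on every array, with a summed signal of 4175 to 4535. They summed to 3275 in rnt1ts at 26 C, where COX3 was not above background, and to 2847 on the array labelled rnt1d at 37 C. COX1 was at 196 and 112 on these arrays, against 1212 to 1654 in wild type. The 5 a-specific genes (MFA1, MFA2, STE2, BAR1 and AGA2) summed to 31.7 in rnt1ts at 26 C, where none was above background, and to 99.0 on the array labelled rnt1d at 37 C. They summed to 1299 to 1671 on both rnt1d arrays at 26 C and the array labelled rnt1ts at 37 C, against 2098 to 3942 on the wild type arrays. The 4 alpha-specific genes summed to 4890 in rnt1ts at 26 C and 2101 on the array labelled rnt1d at 37 C, against 94.0 to 137 on the other arrays. Most of the 2101 was MF(ALPHA)1, at 1957. STE3 was at 60.5 on that array, against 4.53 to 19.5 on the other arrays. MF(ALPHA)2 and SAG1 were at 13.4 and 69.7 on it, within the range of the other arrays, and at 1112 and 508 in rnt1ts at 26 C. The part of these differences in the results below was not tested. No array was moved to another group, and at 37 C the mean of both mutant arrays was compared with wild type, which is the same whichever of them carries which label.

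In rnt1d at 26 C, 9 of 20 box C/D snoRNAs rose and 1 fell, while of 16 box H/ACA snoRNAs 0 rose and 1 fell. Over all 9275 probe sets, 5.49% passed the same test, 3.54% higher and 1.95% lower (limma, Benjamini-Hochberg adjusted p under 0.05). The risers were SNR71, SNR64, SNR50, SNR48, SNR69, SNR56, SNR63, SNR39B and SNR52, with log2 changes of 1.83 to 4.43. Changes are differences of log2(signal + 16), which understates those of dim probe sets. The median change was 0.75 for box C/D and -0.19 for box H/ACA, beside -0.029 for all probe sets. On the deposited scale, where the median of all probe sets was 0.12, the class medians were 0.83 and -0.022.

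**Figure D1:**
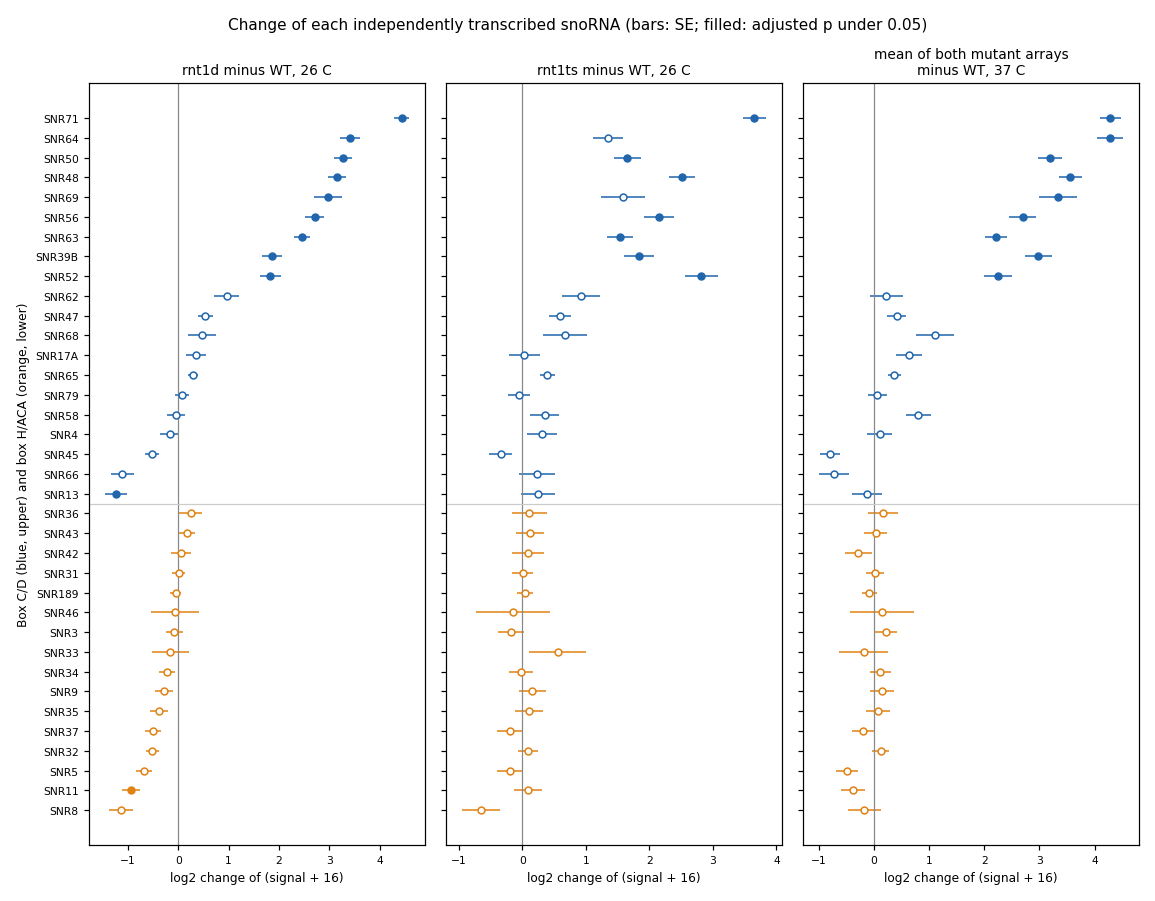
Log2 change of (signal + 16) of each of the 36 snoRNAs in rnt1d against wild type at 26 C, in rnt1ts against wild type at 26 C, and of the mean of both mutant arrays against wild type at 37 C. Points are fitted changes, bars their SE, blue is box C/D and orange box H/ACA, and filled points have an adjusted p under 0.05. The same 9 box C/D members are filled in the left and right panels, and no box H/ACA member is filled above 0.

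SNR71 guides methylation of 25S rRNA. Its signals were 1898 and 1730.0 in rnt1d, against 63.5 and 74.2 in wild type at 26 C. The means were 1814 ± 119 in rnt1d and 68.9 ± 7.61 in wild type (SD, n = 2 each), and the log2 change was 4.43 (SE 0.15, limma, adjusted p = 0.000151). Every rnt1d array lay far above every wild type array.

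SNR64, SNR50, SNR48 and SNR69 are further guides of 25S methylation. SNR64 was at 203 and 164 in rnt1d and at 3.96 and 1.55 in wild type, where it was not above background on either array. It was therefore at least 20.2-fold higher in rnt1d (limma, adjusted p = 0.00103), taking the background bound of each wild type array in place of its signal. SNR50 was at 477 ± 12.6 in rnt1d and 35.4 ± 8.04 in wild type (SD, n = 2 each), 9.65-fold higher on the log2(signal + 16) scale. For SNR48 the means were 393 ± 8.52 in rnt1d and 30.3 ± 6.42 in wild type (SD, n = 2 each), 8.87-fold higher, with limma adjusted p = 0.000893 for both SNR48 and SNR50. SNR50 and SNR48 reached similar levels on both rnt1d arrays.

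SNR69 varied more between the rnt1d arrays than the other risers did. It was at 843 and 477 there, against 70.7 and 63.1 in wild type, and its log2 change was 2.97 (SE 0.28, limma, adjusted p = 0.00728). The lower of the rnt1d values still lay well above both wild type values.

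SNR56 guides methylation of 18S rRNA, and SNR63 and SNR39B guide methylation of 25S rRNA. SNR56 was at 201 and 266 in rnt1d, against 20.6 and 23.3 in wild type, a log2 change of 2.70 (SE 0.20, limma, adjusted p = 0.00268). SNR63 was at 347 and 333 in rnt1d, against 54.8 and 43.5 in wild type, a log2 change of 2.46 (SE 0.17). For SNR39B the values were 187 and 157 in rnt1d and 41.7 and 29.7 in wild type, 3.64-fold higher (limma, adjusted p = 0.00999). None of these ranges overlapped, though the share of all probe sets for which this held is not given here. The brighter SNR39B probe set carries a suffix that Affymetrix uses for sequence shared by several transcripts. The second SNR39B probe set, at 98.3 and 99.8 in rnt1d and 23.1 and 23.3 in wild type, changed by 1.55.

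SNR52, the RNA polymerase III transcript, also rose. It was at 139.7 and 115 in rnt1d, against 29.9 and 19.3 in wild type, a log2 change of 1.83 (SE 0.21, limma, adjusted p = 0.0121).

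**Figure D2:**
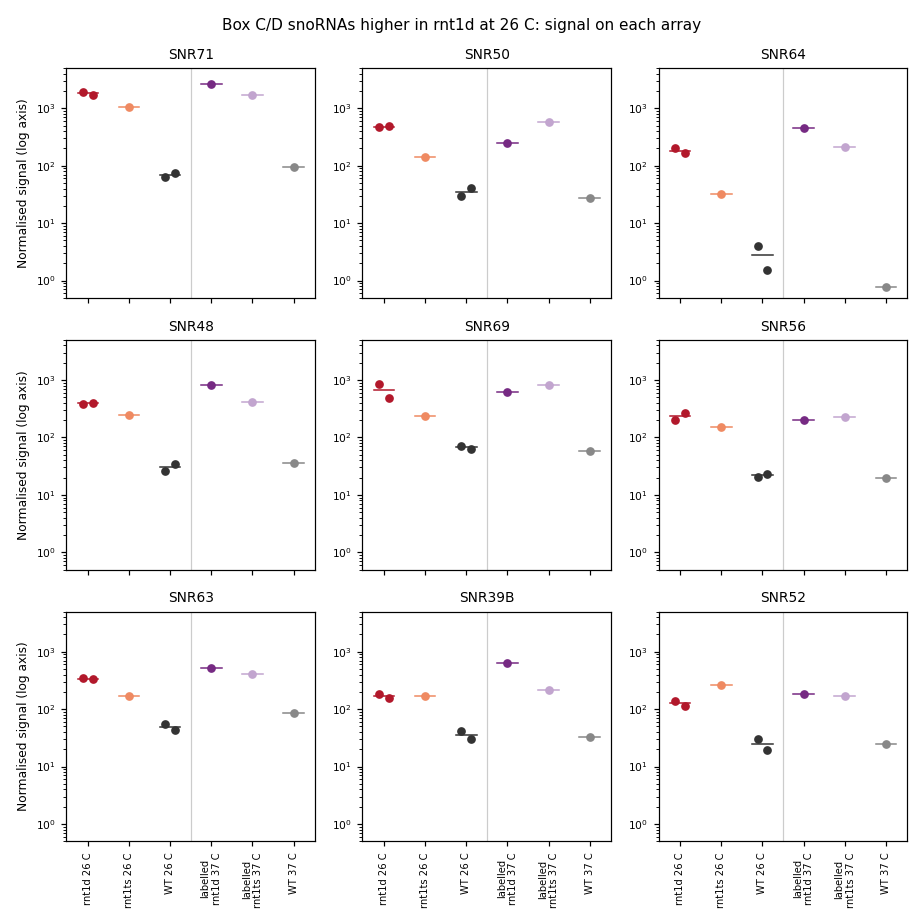
Normalised signal (log axis) of the 9 box C/D snoRNAs that rose in rnt1d at 26 C, 1 panel each, on all 8 arrays; points are arrays and lines group means. In every panel all 5 mutant arrays lie above all 3 wild type arrays, and SNR64 lies between 0.772 and 3.96 on the wild type arrays.

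Of the 4 measured box C/D snoRNAs that keep their cap, 0 rose and 1 fell in rnt1d at 26 C, with a median of -0.35. Among the 16 others 9 rose and 0 fell, with a median of 1.84. The difference between these subgroups was not tested. SNR13, a capped guide of 25S methylation, was at 24.5 and 37.2 in rnt1d, against 106 and 82.4 in wild type. It fell by 1.24 on the log2 scale (SE 0.22, limma, adjusted p = 0.0388). SNR4 and SNR45, which guide acetylation of 18S rRNA, were not called. SNR4 was at 131 and 179 in rnt1d and 176 and 174 in wild type, so the groups overlapped. SNR45 was at 8.02 and 5.61 in rnt1d, above background on 1 of those arrays, against 17.0 and 16.3 in wild type (limma, adjusted p = 0.101). SNR17A, the U3 RNA needed for cleavage of the 18S precursor, was at 58.6 and 48.6 in rnt1d and 34.0 and 43.4 in wild type (limma, adjusted p = 0.346). SNR17B was not analysed here, and a near-identical copy can share signal with this probe set. The gene table of assembly R64 also places IRC13 over SNR17A on the same strand.

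Not every box C/D snoRNA outside the capped ones rose. SNR66, a guide of 25S methylation, was at 19.3 and 20.4 in rnt1d, against 76.1 and 48.9 in wild type, a log2 change of -1.11 that missed the threshold (SE 0.23, limma, adjusted p = 0.0512). SNR47 was at 17.9 and 19.2 in rnt1d and not above background on either wild type array at 26 C, at least 2.05-fold higher, and did not pass the test (limma, adjusted p = 0.0908). SNR62 has 2 probe sets that differ. The brighter one was at 16.9 and 35.9 in rnt1d, against 6.30 and 4.32 in wild type, both not above background (log2 change 0.96, limma, adjusted p = 0.0843). The other was at 10.3 and 14.6 in rnt1d, against 7.08 and 10.7 in wild type, the last of these above background, with overlapping groups (log2 change 0.19, limma, adjusted p = 0.524). SNR65 and SNR79 were not above background on any of the 8 arrays. SNR58 and SNR68 had log2 changes of -0.045 and 0.47 and overlapping groups.

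Log2 changes of the box H/ACA snoRNAs ran from -1.14 to 0.25, with 12 of 16 below 0 and 1 called. The median of all probe sets was below 0 too, at -0.029, and the share of them below 0 is not given here. On the deposited scale 4 of these 12 (SNR3, SNR33, SNR46 and SNR189) were above 0, and under median scaling SNR31 was below it. SNR11 guides pseudouridylation of 25S rRNA. It was at 22 and 25.7 in rnt1d, against 56.8 and 64 in wild type, and fell by 0.94 on the log2 scale (SE 0.18, limma, adjusted p = 0.043). SNR8, at 43.2 and 67.9 in rnt1d against 121 and 159 in wild type, missed the threshold (log2 change -1.14, limma, adjusted p = 0.0551). SNR5 did too, at 64.2 and 64.7 in rnt1d against 118 and 108 in wild type (log2 change -0.68, limma, adjusted p = 0.0737). In each of these members, guides of 25S modification, the rnt1d values lay below the wild type values without overlap. They were named for being called or near the threshold, and the share of all probe sets without such overlap is not given here. The highest change of the class was that of SNR36, at 25.5 and 42.6 in rnt1d and 24.3 and 26.9 in wild type, where the groups overlapped. SNR33 had 109 and 99.7 in rnt1d, within the wild type values of 181 and 74.9.

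The remaining box H/ACA members were described over the 8 arrays. SNR3, SNR34 and SNR43, guides of 25S pseudouridylation, ran from 14.7 to 21.1, 11.1 to 20.4 and 12.5 to 21.2, and SNR31, a guide for 18S rRNA, from 10.52 to 16.3. These were above background on every array. SNR9 ran from 22.6 to 51.1, with its lowest values in rnt1d at 26 C. SNR46 ran from 17.97 to 73.7 and had the widest gap between replicates, at 25.4 and 57.6 in rnt1d and 21.3 and 73.7 in wild type at 26 C. SNR32, SNR35, SNR37 and SNR42 were not above background on 4, 1, 1 and 2 of the 8 arrays, and SNR189 was above it on 1.

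Of these 11 calls, SNR71, SNR64, SNR50 and SNR48 passed the test under all 13 alternative settings. On the deposited scale 7 box C/D members were called higher and 0 lower, with the calls of SNR39B, SNR52 and SNR13 lost. The SNR39B call was also lost without either wild type array at 26 C and without rnt1d replicate 2. Leaving out wild type replicate 1 or replicate 2 left 4 box C/D calls each, and the SNR13, SNR11 and SNR52 calls were lost whichever of the 4 rnt1d and wild type arrays at 26 C was left out and on the deposited scale. A hybridisation control (CreX) was bright on replicate 2 of both strains, with mean deposited signals of 723 in rnt1d and 724 in wild type, and at or under 5.60 on the other 6 arrays. Within the arrays of 1 number, so of like control signal, the SNR71 change was 4.59 for replicate 1 and 4.27 for replicate 2, SNR64 3.45 and 3.36, and SNR11 -0.94 and -0.94. For SNR8 the changes were -1.21 and -1.06, for SNR5 -0.74 and -0.62, and for SNR66 -1.38 and -0.84. In none of these members did the rnt1d and wild type values overlap, so the sign within a number could not differ. Only the sizes are informative. With a term for the bright control, chosen after seeing the data, SNR8, SNR5, SNR32, SNR66 and SNR62 passed the test as well, with limma adjusted p = 0.00563, 0.0325, 0.0476, 0.0131 and 0.0273 and 1 residual degree of freedom. That term also raised the calls over all 9275 probe sets from 509 to 1425. A block for replicate number gave the same 1425, so these settings, both among the 13, are not separate checks. SNR32 was not above background on either rnt1d array at 26 C.

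In rnt1ts at 26 C, 7 of 20 box C/D snoRNAs rose and 0 fell, and 0 of 16 box H/ACA snoRNAs were called by limma, with 0 at an unadjusted p under 0.05. Of all probe sets 0.787% were called, 0.582% higher. The comparison rests on 1 array, assumed to vary like the replicated groups, and on the wild type arrays that also served for rnt1d. SNR71 was at 1049 in rnt1ts against 63.5 and 74.2 in wild type, a log2 change of 3.65 (SE 0.19, limma, adjusted p = 0.00326). SNR52 was at 268, against 29.9 and 19.3 in wild type, a log2 change of 2.82 (SE 0.26, adjusted p = 0.013 by limma). SNR48 was at 247 and SNR56 at 152, with log2 changes of 2.51 and 2.15. For SNR39B, SNR50 and SNR63 the signals were 167, 145 and 172, and the adjusted p ran from 0.0449 to 0.0462 in limma.

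SNR64 and SNR69 were not called in rnt1ts. SNR64 was at 31.7, above background and at least 3.51-fold over wild type (limma, adjusted p = 0.118), and SNR69 at 232, with a log2 change of 1.58 (SE 0.34, adjusted p = 0.211 in limma). SNR13, SNR66 and SNR11, at 114, 74.8 and 65.5 in rnt1ts, lay close to or above their wild type values of 82.4 to 106, 48.9 to 76.1 and 56.8 to 64. Without either wild type array 0 of the 7 calls remained, and without rnt1d replicate 1 or 2, which enter only through the estimate of the spread, 3 and 4 remained.

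The strains were also set against each other at 26 C, where 1.57% of all probe sets were called, 0.809% higher and 0.765% lower in rnt1d. Of 20 box C/D snoRNAs 2 were higher in rnt1d and 0 lower. SNR64 was at 203 and 164 in rnt1d against 31.7 in rnt1ts, a log2 difference of 2.06 (SE 0.24, limma, adjusted p = 0.025). SNR50 was at 468 and 486 in rnt1d against 145 in rnt1ts, a log2 difference of 1.62 (SE 0.22, limma, adjusted p = 0.0352). Both calls were lost when any 1 of the 4 replicated arrays was left out, and on the deposited scale. SNR52 stood the other way, at 139.7 and 115 in rnt1d against 268 in rnt1ts, and did not pass (log2 difference -0.99, SE 0.26, limma, adjusted p = 0.142). SNR13, SNR66 and SNR11 had log2 differences of -1.48, -1.34 and -1.03 between rnt1d and rnt1ts, with limma adjusted p = 0.0734, 0.0893 and 0.0955. No box H/ACA member was called, and 2 had an unadjusted p under 0.05 in the limma fit.

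Temperature alone was compared in wild type, with 1 array at 37 C against 2 at 26 C. None of the 36 members was called in limma, and 0% of all probe sets were. Without adjustment 3 box C/D members and 0 box H/ACA members had p under 0.05. These were SNR4, at 368 in wild type at 37 C against 176 and 174 at 26 C, SNR45, at 33.9 against 17.0 and 16.3, and SNR63, at 87.1 against 54.8 and 43.5. Their log2 changes were 1.01, 0.61 and 0.67 (limma, adjusted p = 0.375, 0.444 and 0.457). The class medians were -0.036 for box C/D and -0.074 for box H/ACA, and 0.25 and 0.21 on the deposited scale, where the median of all probe sets was 0.24. The 9 members that rose in rnt1d, other than SNR63, lay at 37 C in wild type within 0.37 log2 units of their mean at 26 C, SNR64 below background at both.

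At 37 C the mean of both mutant arrays was higher than wild type for 9 of 20 box C/D snoRNAs and lower for 0, and 0 of 16 box H/ACA snoRNAs were called, with 1 at an unadjusted p under 0.05 in limma. Of all probe sets 0.992% were called, 0.658% higher and 0.334% lower. The 9 are the same 9 that rose in rnt1d at 26 C, and these comparisons have no array in common, although they share the estimate of the spread. On the deposited scale 6 of these 9 were called higher at 37 C. SNR71 was at 2640.2 on the array labelled rnt1d and 1691 on that labelled rnt1ts, against 93.4 in wild type, a log2 change of 4.28 (SE 0.19, limma, adjusted p = 0.00069). SNR64 was at 458 and 208 on these arrays and not above background, at 0.772, in wild type, at least 35.8-fold higher (limma, adjusted p = 0.00152). SNR48 was at 825 on the array labelled rnt1d and 419 on that labelled rnt1ts, against 35.5 in wild type, a log2 change of 3.55 (SE 0.21).

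The 37 C mutant arrays differed in their order. SNR39B was at 625 on the array labelled rnt1d and 216 on that labelled rnt1ts, against 32.8 in wild type. SNR50 was at 245 on the array labelled rnt1d and 566 on that labelled rnt1ts, against 26.9 in wild type. SNR69 was at 629.7 and 833 on them, against 57.6 in wild type. The 3 remaining risers lay closer together, SNR56 at 204 and 231 against 19.99 in wild type, SNR63 at 512 and 418 against 87.1, and SNR52 at 187 and 168 against 24.6. All 9 calls were also made with either mutant array alone against wild type. Without wild type replicate 1 or replicate 2 at 26 C, which enter only through the estimate of the spread, 4 calls remained, those of SNR71, SNR64, SNR50 and SNR48.

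Several members outside these 9 differed between the 37 C mutant arrays. SNR4 was at 1126 on the array labelled rnt1d and 134 on that labelled rnt1ts, against 368 in wild type, so that its mean change of 0.11 joins an array above wild type with one below it. SNR66 was at 58.7 on the array labelled rnt1d and 18.5 on that labelled rnt1ts, against 67.8 in wild type. SNR11 was at 59.4 and 19.3 on these arrays, against 50.8 in wild type. For SNR13 the signals were 82.2 and 36.2, against 61.8 in wild type, and for SNR5 they were 160.4 and 58.3, against 145. In these 5 members the array labelled rnt1ts was the lowest at 37 C. They were named because the arrays differed in them, so this count says nothing about the members at large. Among the 9 risers, SNR50, SNR69 and SNR56 were instead highest on that array. For SNR66, SNR11, SNR13 and SNR5 its signal lay with or below those of rnt1d at 26 C, which were 19.3 and 20.4, 22 and 25.7, 24.5 and 37.2, and 64.2 and 64.7. SNR8, low in rnt1d at 26 C as well, was at 67.9 on the array labelled rnt1d and 67.0 on that labelled rnt1ts, against 78.3 in wild type, so it did not separate them. Other members kept the labelled order. SNR71, SNR64, SNR48 and SNR63 were higher in rnt1d than in rnt1ts at 26 C, and higher on the array labelled rnt1d at 37 C. For SNR50, SNR69, SNR56 and SNR52 the order of the labels at 37 C was the reverse of that at 26 C. SNR39B in rnt1ts lay between the rnt1d arrays at 26 C. With 1 array per label at 37 C, these differences have no replicate check.

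**Figure D3:**
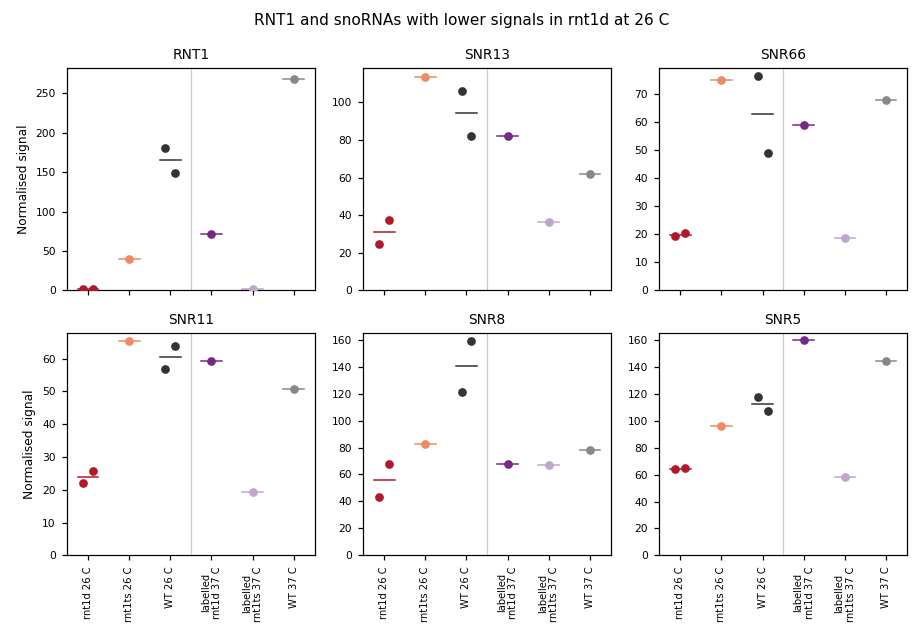
Normalised signal of RNT1, 2 box C/D snoRNAs (SNR13 and SNR66) and 3 box H/ACA snoRNAs (SNR11, SNR8 and SNR5) on all 8 arrays; points are arrays and lines group means, on axes that start at 0. RNT1, SNR66, SNR11 and SNR5 are lowest on both rnt1d arrays at 26 C and on the array labelled rnt1ts at 37 C, with SNR11 at 19.3 to 25.7 there and 50.8 to 65.5 on the other arrays.

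The change of the mutant effect with temperature was not called for any member. It was taken as the difference between the mean mutant effect at 37 C and that at 26 C, and 0% of all probe sets were called. Unadjusted p was under 0.05 for 4 box C/D members (SNR64, SNR39B, SNR48 and SNR50) and 0 box H/ACA members. SNR64 had the smallest, with a difference of 1.90 (SE 0.30, limma, adjusted p = 0.778), and SNR39B followed with 1.13 (SE 0.30, adjusted p = 0.978 in limma). SNR64 was not above background on any wild type array, so its difference depends on the pseudocount. SNR71 differed by 0.24 (SE 0.24) and SNR52 by -0.069 (SE 0.32). On the deposited scale the SNR71 difference was -0.31, where the median of all probe sets was -0.30.

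Over all 8 arrays, the 5 mutant arrays lay above all 3 wild type arrays for 11 of 20 box C/D snoRNAs, and for 0 of 16 box H/ACA snoRNAs. Of all probe sets 5.93% did so. The 11 were the 9 risers with SNR47, at 17.9 to 22.1 on the mutant arrays and 7.26 to 11.03 on the wild type arrays, and SNR65, which was not above background on any array. For 0 members did the mutant arrays all lie below the wild type arrays, against 6.22% of all probe sets. By array, the median difference of the box C/D members from the wild type mean at 26 C was 0.57 and 1.04 in rnt1d and 0.79 in rnt1ts at 26 C. At 37 C it was 1.74 on the array labelled rnt1d, 0.81 on that labelled rnt1ts and -0.036 in wild type. For box H/ACA the median ran from -0.34 to 0.064 over the same arrays.

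**Figure D4:**
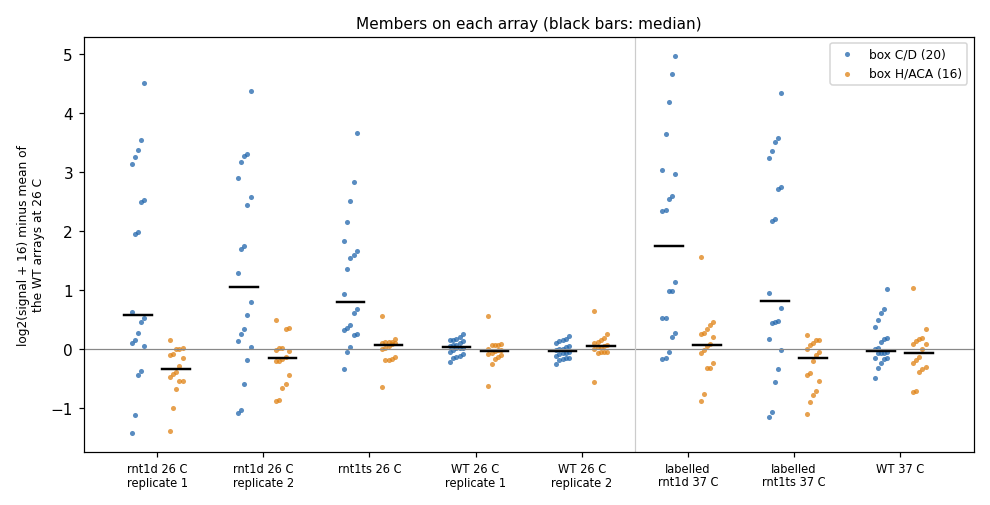
Difference of log2(signal + 16) of each member from the mean of the wild type arrays at 26 C, for the 20 box C/D (blue) and 16 box H/ACA (orange) snoRNAs on each array; points are snoRNAs and black bars medians. Box C/D medians are 0.57 to 1.74 on the mutant arrays, and box H/ACA medians are -0.34 to 0.064 on the mutant arrays and the wild type array at 37 C.

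Genes next to the members were looked up in the same R64 table. Over all members, 59 neighbouring genes that are no members were measured, and in rnt1d at 26 C 1 of them rose and 0 fell, beside 3.54% higher and 1.95% lower over all probe sets. That gene is PMD1, next to both SNR52 and SNR4, with a log2 change of 1.41 (limma, adjusted p = 0.0243). The 17 measured neighbours of the 9 risers had log2 changes of -0.94 to 1.41 and a median of -0.038.

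Genes for the proteins that bind and process these RNAs were measured too. In rnt1d at 26 C none of the 4 core proteins of box C/D particles (NOP1, NOP56, NOP58 and SNU13) was called, nor any of 3 core proteins of box H/ACA particles (CBF5, GAR1 and NHP2; NOP10 was not analysed here), with median log2 changes of -0.25 and -0.44 and 1 member each at an unadjusted limma p under 0.05. Among 11 genes for assembly and capping 0 were called (4 at an unadjusted limma p under 0.05). Of 24 genes for termination and end trimming, LSM5, a subunit of the Lsm ring, rose by 0.88 log2 units (SE 0.15, limma, adjusted p = 0.0371) and 0 fell, where 3.54% of all probe sets were called higher. LSM5 was at 302 and 277 in rnt1d, against 145 and 155 in wild type. In rnt1ts at 26 C and in both mutant arrays at 37 C 0 genes of these 4 lists were called by limma, and 5 of the last list had an unadjusted p under 0.05 at 37 C. The share of all probe sets under that unadjusted p is not given here, so these unadjusted counts cannot be read as a result about the lists.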

How the data were processed

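Total RNA was hybridised to 8 Affymetrix arrays. The deposited values are intensities, and the submitters' processing notes name MAS5 as the software. The sources used here do not give its version, scaling target or detection calls. The values are linear and uncentred, with medians of 31.0 to 69.5 per array, and the number of arrays limits the precision. All 9335 probe sets, 60 controls included, were quantile-normalised, and log2(signal + 16) was fitted with a mean for each of 6 groups in limma 3.58.1 (R 4.3.3, intensity trend). Only rnt1d and wild type at 26 C have replicates, which leaves 2 residual degrees of freedom before moderation, and a lone array was assumed to vary like them. Nothing says that the replicates came from separate cultures, so the p-values may measure technical spread only. P-values were Benjamini-Hochberg adjusted over 9275 non-control probe sets, and a call has an adjusted p under 0.05. Counts at an unadjusted p under 0.05 are given without the share of all probe sets under it. A probe set was not above background where it lay at or under the highest on that array of 19 control probe sets of non-yeast genes (named Dap, Lys, Mur, Phe, Thr and Trpn, without the hybridisation controls), and "at least" folds use this bound. Platform annotation named 1 gene for 6504 probe sets, several for 328 and none for 2443. A gene with several probe sets was read from the one with the highest mean, and all 36 members matched the R64 gene table. The text names every called member, those nearest the threshold, RNT1 and called genes of the fixed lists; other members were named after their values were seen. The members and lists were chosen with earlier results of these data known. Tests were checked on simulated data. Alternative scalings, pseudocounts, filters and left-out arrays were run. Figures used matplotlib 3.10.9.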

Additional observations from a re-analysis of the deposited data

Results flagged for a closer look

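Of the 36 members, 2 differed between the mutant strains at 26 C by a test of the difference itself, beside 1.57% of all probe sets. This difference equals that of their effects against the shared wild type arrays. SNR64 was higher in rnt1d than in rnt1ts by 2.06 log2 units, with signals of 203 and 164 in rnt1d and 31.7 in rnt1ts. SNR50 was higher in rnt1d by 1.62 log2 units, with signals of 468 and 486 in rnt1d and 145 in rnt1ts. Both calls were lost on the deposited scale, that of SNR50 also after median scaling and that of SNR64 also with a pseudocount of 1. Their losses with arrays left out are given above. The rnt1ts value is 1 array, and the strains also differed in mating-type and mitochondrial transcripts, whose part was not tested.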

How the results depend on the processing

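Over the 29 calls on single members, 294 of 377 alternative values kept the call, 83 lost it and 0 changed direction. In rnt1d against wild type at 26 C, the box C/D count of 10 ranged from 4 to 8 when 1 of the 4 replicated arrays was left out, and the box H/ACA count of 1 was 0 in each of those fits and on the deposited scale. That H/ACA count was 2 with a pseudocount of 1, 3 with the 25th percentile filter, 4 with the replicate block and 4 with a term for bright hybridisation controls. The C/D count with the block was 12. Block and term gave the same 1425 calls over all probe sets in this comparison. They are therefore not separate checks, though both enter the alternative values counted above. In rnt1ts against wild type the C/D count of 7 was 4 after median scaling, 3 on the deposited scale, 4 with a pseudocount of 32, and 0 to 4 with 1 array left out. In rnt1d against rnt1ts the C/D count of 2 was 0 on the deposited scale, 1 after median scaling, 1 with a pseudocount of 1, 4 with the filter, 5 with the hybridisation term and 0 with any 1 of the 4 replicated arrays left out; the H/ACA count of 0 was 1 with the filter and 1 with that term. At 37 C the C/D count of 9 for both mutant arrays against wild type was 6 on the deposited scale, where SNR52, SNR56 and SNR63 were lost. It was also lower with any 1 of the 4 replicated arrays left out. The counts for temperature in wild type and for the change of the mutant effect were 0 for the members in all fits, while over all probe sets temperature gave 14 calls on the deposited scale, 11 with the block, 4 with the hybridisation term and 3 with the filter, and the change of the mutant effect 3 on the deposited scale and 2 in each of the other 3. Over all probe sets, 509 calls in rnt1d became 100 on the deposited scale, 895 with the filter, 1425 with the replicate block and 33 to 241 with 1 of the replicated arrays left out, and the split of 328 higher and 181 lower became 216 and 324 with median scaling. The cause of these shifts was not tested. The labels give replicate numbers no meaning; deviations of same-numbered arrays correlated at 0.31, and both arrays numbered 2 share the bright hybridisation control. The hybridisation term and the fits without a 37 C mutant array were chosen after seeing the data. A check of precursor hairpins was not run, because no sequence was used here. Members not above background, 2 to 8 per array, have only a bound.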
